A study of Homo sapiens with 20 samples.

Results

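Transcript levels of 40 genes that encode the structural subunits, assembly factors and regulators of the 26S proteasome were described, of 18305 genes listed in RNA-seq data from 20 libraries. The members were taken by gene symbol and by no measured value, though with earlier results of these data known. They are 7 genes of the alpha ring (PSMA1 to PSMA7), 4 of the beta ring (PSMB1 to PSMB4), 10 of the base of the 19S regulatory particle (PSMC1 to PSMC6, PSMD1, PSMD2, PSMD4 and ADRM1) and 8 of its lid (PSMD3, PSMD6, PSMD7, PSMD8, PSMD11, PSMD12, PSMD13 and PSMD14). Another 5 encode chaperones of 20S assembly (POMP and PSMG1 to PSMG4), 3 encode chaperones of base assembly (PSMD5, PSMD9 and PSMD10), and 3 encode other regulators (PSME3, PSME4 and PSMF1). The catalytic subunits that bortezomib and carfilzomib bind and the immunoproteasome subunits were kept apart from them. All 40 genes passed the filter on low values and were tested.

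The 20S core of the proteasome is a barrel in which outer alpha rings gate the entry of substrates and inner beta rings hold the proteolytic sites. The 19S particle caps the barrel: its base holds the AAA+ ATPases that unfold substrates, and its lid holds the deubiquitinase that removes ubiquitin chains. Dedicated chaperones guide the assembly of both particles, and the transcription factor NRF1 (NFE2L1) raises subunit transcription through antioxidant response elements when proteasome activity is inhibited. Plasma cells secrete large amounts of immunoglobulin and depend on proteasomal degradation, and proteasome inhibitors are standard drugs in multiple myeloma.

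Libraries came from 3 human myeloma lines (RPMI-8226, AMO1 and L363) and from ARH-77, a B-lymphoblastoid line. Each line was sequenced as wild-type (WT) cells and as bortezomib-resistant (BtzR) cells, and libraries labelled as carfilzomib-resistant (CfzR) came from AMO1 and L363, which gives 10 groups of 2 biological replicates. Resistant cells were grown in 90 nM bortezomib or 90 nM carfilzomib, and all cells in RPMI-1640 medium with serum, so the resistant state and the presence of the drug cannot be told apart. Each resistant group is 1 derived line, and the sources used here do not say whether it is a clone. Values are FPKM, fragments mapped to a gene scaled to the length of its transcript and to the mapped fragments of the library, so levels can be compared between genes.

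Read counts were not used here and the depth of each library is unknown, so no interval for counting error is given. The FPKM of all listed genes summed to between 457317 and 494850 per library. Plasma cell markers reached 1 FPKM for 8 of 8 genes in every myeloma group. Their summed level was lower in BtzR than in WT cells of each myeloma line. It was 4679 to 5186 against 6882 to 8328 FPKM in AMO1 and 5748 to 6202 against 6867 to 9057 FPKM in L363. In RPMI-8226 it was 1673 to 1958 against 3473 to 3754 FPKM. The markers did not move as a set: in BtzR cells of each of these lines JCHAIN was lower and PRDM1 higher. In RPMI-8226 JCHAIN measured 822 to 1044 FPKM in BtzR against 2282 to 2522 FPKM in WT. XBP1 measured 327 to 341 against 246 to 248 FPKM there, and IRF4 was also higher, while CD38, TNFRSF17 and MZB1 were lower. The summed level of 8 B cell markers was 97.2 to 99.4 FPKM in AMO1 BtzR against 11 to 15.2 FPKM in WT, of which CIITA held 96.1 to 98.6 FPKM while MS4A1 and PAX5 were under 1 FPKM in both, and 1.27 to 1.80 FPKM in RPMI-8226 BtzR against 34.2 to 35.5 FPKM in WT. The part of these shifts in the members' differences was not tested. ARH-77 libraries held 8 of 8 B cell markers at 1 FPKM, and its plasma cell sum lay between 284 and 326 FPKM. The 2 libraries labelled AMO1 CfzR went against their label: over tested genes they correlated with L363 libraries at a Pearson r of 0.986 to 0.992 and with the other AMO1 libraries at 0.878 to 0.883. They are therefore called the libraries labelled AMO1 CfzR, and are set against L363 WT as well as AMO1 WT. In 9 of the 10 groups most members were higher in replicate 1 than in replicate 2, for 28 to 36 of 40 genes. In ARH-77 WT 36 of 40 were, with a median gap of 0.32 on the log2(FPKM + 1) scale, the widest of the 10 groups.

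Every member was expressed in every library, with values between 7.59 and 625 FPKM. The 40 genes together held 0.692% to 0.944% of the FPKM of all listed genes, and their sum ranged from 3199 FPKM in L363 BtzR replicate 2 to 4383 FPKM in ARH-77 WT replicate 1. The next highest library, AMO1 BtzR replicate 2, stood at 4014 FPKM. Of the summed FPKM of the members, the alpha ring held 20.1% to 31.9%, the 19S base 20.9% to 26.6%, the beta ring 17% to 22.6% and the lid 13.9% to 19.4%. Assembly factors of the 20S core held 5.69% to 10.3%, and those of the base 1.46% to 2.25%.

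**Figure D1:**
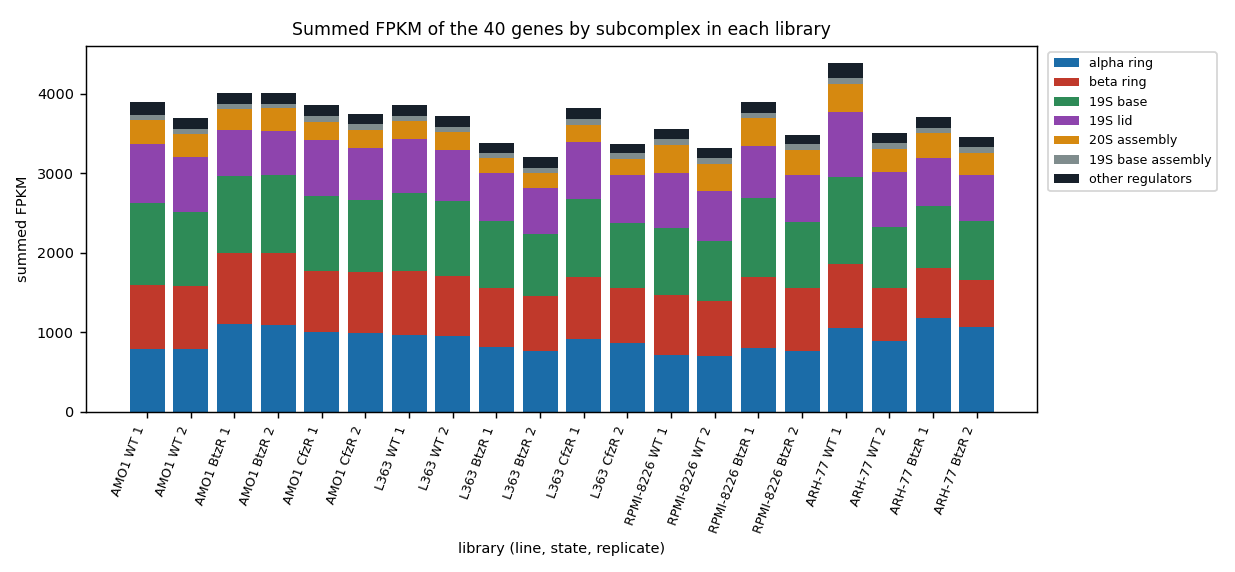
Summed FPKM of the 40 genes (vertical axis) in each of the 20 libraries (horizontal axis), stacked by subcomplex. The sums lie between 3199 and 4383 FPKM, and the alpha ring takes its largest share of the members' FPKM, 31.9%, in ARH-77 BtzR.

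The alpha ring sum was 785 and 786 FPKM in AMO1 WT and 1101 and 1094 FPKM in AMO1 BtzR, while the lid sum was 747 and 684 FPKM in WT and 572 and 557 FPKM in BtzR. In ARH-77 the lid sum was 812 and 682 FPKM in WT and 605 and 581 FPKM in BtzR. The alpha ring sum there was 1049 and 891 FPKM in WT and 1182 and 1073 FPKM in BtzR. In AMO1 and ARH-77 these 2 subcomplexes thus did not keep 1 ratio, and their WT and BtzR libraries did not overlap. In L363 both sums were lower in BtzR. The lid there measured 682.2 and 651.8 FPKM in WT and 599.5 and 571.3 FPKM in BtzR. Its mean share of the members' FPKM was 17.6% in L363 WT and 17.8% in L363 BtzR. In RPMI-8226 the lid libraries overlapped, at 680.4 and 625.4 FPKM in WT and 655.3 and 592.4 FPKM in BtzR. Such sums are carried by the most abundant genes and were not tested, and in bulk RNA fewer expressing cells and less RNA per cell cannot be told apart.

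Within a subcomplex, transcript levels spread widely in WT cells. PSMB4 was the most abundant member, with a mean of 344 FPKM over the 8 WT libraries (220 to 446), and PSMB2 the least abundant of the beta ring at 53.9 FPKM (39.4 to 81.1). In the alpha ring PSMA4 was highest at 171 FPKM (120 to 261) and PSMA5 lowest at 37.6 FPKM (24.4 to 51.9). PSMD4, the ubiquitin receptor, led the base at 172 FPKM (127 to 214), and the ATPase PSMC6 was lowest at 41.6 FPKM (25.7 to 52.3). Subunits that stand in equal number in the particle thus differed several-fold in transcript level.

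In the lid, PSMD8 stood at 144 FPKM (73.0 to 190) and PSMD12 at 30.3 FPKM (20.9 to 44.5). Among the chaperones of 20S assembly, PSMG1 was highest at 93.5 FPKM (39.7 to 148) and PSMG4 lowest at 24.6 FPKM (11.2 to 48.1). PSMD10, or gankyrin, stood at 37.6 FPKM (24.8 to 50.9) and PSMD9 at 12 FPKM (8.15 to 15.7), the lowest of all members. PSME3, the nuclear activator PA28-gamma, had 96.4 FPKM (73.2 to 132), and PSMF1, the inhibitor PI31, had 19.1 FPKM (13.9 to 24.6). The WT ranges of the highest and the lowest gene did not overlap in 6 of the 7 subcomplexes, and in 20S assembly those of PSMG1 and PSMG4 did.

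**Figure D2:**
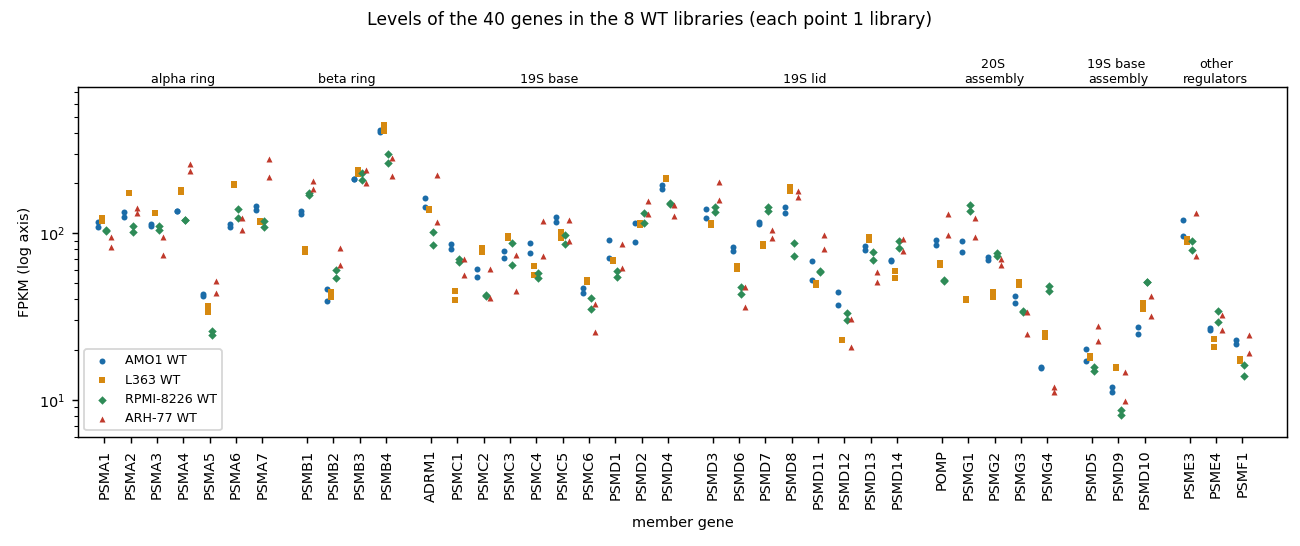
FPKM of each member gene (horizontal axis, grouped by subcomplex) in the 8 WT libraries (vertical log axis, each point 1 library, marker and colour by line). PSMB4 lies highest, between 220 and 446 FPKM, and PSMD9 lowest, between 8.15 and 15.7 FPKM.

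Levels differed between WT lines for 37 of 40 members by a moderated F test (limma) at a Benjamini-Hochberg adjusted p under 0.05, against 92.6% of the 13089 genes tested. The 3 that did not pass were PSMB3, PSMC5 and PSME3. In the contrast of the 3 myeloma WT lines with ARH-77 WT, 12 members were higher (34.2% of tested genes were) and 15 lower (38.9% of tested genes), with a median difference of -0.06, close to that of -0.04 over all tested genes. Differences are in log2(FPKM + 1) throughout. ARH-77 is 1 line, and the SE and p of the contrast with it rest on replicate libraries within lines. They do not measure the spread between lines. Without ARH-77 WT replicate 1 the members' median was 0.11, so its sign rested on that library.

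PSMG4, a chaperone of alpha ring assembly, showed the largest excess in myeloma lines. It measured 11.2 and 12 FPKM in ARH-77 WT, 15.7 and 15.6 FPKM in AMO1 WT, 25.3 and 23.9 FPKM in L363 WT, and 44.9 and 48.1 FPKM in RPMI-8226 WT, a difference of 1.11 (SE 0.09, adjusted p = 4.8e-08 by limma). The 4 lines did not overlap for this gene, and all 6 myeloma libraries lay above ARH-77.

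PSMD13, a lid scaffold subunit, measured 58.3 and 50.8 FPKM in ARH-77 WT and 69.1 to 94.9 FPKM in the 6 myeloma WT libraries, a difference of 0.58 (SE 0.07). PSMG3, the partner of PSMG4, measured 33.6 and 24.8 FPKM in ARH-77 WT and 33.7 to 51.1 FPKM in the 6 myeloma WT libraries, a difference of 0.48 (SE 0.10). The groups did not overlap for either gene, but for PSMG3 the margin between them was narrow.

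Lower in the myeloma lines were PSMA7, PSMA4 and POMP. PSMA7 measured 280 and 217 FPKM in ARH-77 WT against 109 to 146 FPKM in the 6 myeloma WT libraries (-0.99, SE 0.08, limma adjusted p = 4.8e-08). PSMA4 measured 261 and 236 FPKM against 120 to 183 FPKM (-0.79, SE 0.06). POMP, the chaperone that carries beta subunits onto the alpha ring, measured 130 and 97.4 FPKM against 51.8 to 90.5 FPKM (-0.75, SE 0.10). For each of the 3 genes both ARH-77 libraries lay above every myeloma library, although the ARH-77 replicates themselves were far apart.

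In AMO1, 9 members were higher in BtzR than in WT cells (25.6% of tested genes were) and 15 lower (25.6% of tested genes), with a median difference of -0.13 against 0.00 over all tested genes. Higher members were 22.5% of 40, near the background, and lower members 37.5%. The alpha ring and the lid leaned in opposite directions. In the alpha ring 5 of 7 rose and 1 fell. In the lid 0 of 8 rose and 6 fell, with 0 higher also at an unadjusted p under 0.05. In the base 2 rose and 3 fell, in the beta ring 1 rose and 2 fell, among 20S chaperones 2 of 5 fell, and among base chaperones 1 of 3 moved each way. Without AMO1 WT replicate 1, and likewise without AMO1 BtzR replicate 1, 9 members passed as lower in place of 15, and without AMO1 WT replicate 1 the members' median was -0.030.

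PSMA6, which sits in the outer gate of the core, rose most of all members. It measured 113 and 108 FPKM in AMO1 WT and 263 and 257 FPKM in AMO1 BtzR, a difference of 1.22 (SE 0.10, limma adjusted p = 1.4e-07). PSMC6, an ATPase of the base, measured 46.9 and 44.0 FPKM in WT and 76.1 and 80.0 FPKM in BtzR (0.77, SE 0.14). PSMA3, another alpha subunit, measured 114 and 111 FPKM in WT and 195 and 187 FPKM in BtzR (0.76, SE 0.12). The gap between groups was several times the gap between replicates for each of the 3, and no other group of libraries had higher values of these genes.

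PSMD3, a scaffold subunit of the lid, fell most, from 140 and 123 FPKM in AMO1 WT to 56.5 and 60.4 FPKM in AMO1 BtzR (-1.16, SE 0.11, limma adjusted p = 1.1e-06). The ATPase PSMC5 measured 125 and 116 FPKM in WT and 56.4 and 61.2 FPKM in BtzR (-1.03, SE 0.15). PSMD12, a further lid scaffold, measured 44.5 and 37.2 FPKM in WT and 19.6 and 19.6 FPKM in BtzR (-1.01, SE 0.14). These 3 and PSMA6 were the 4 of 40 members that passed with an absolute difference of 1 or more in this contrast. Of all tested genes 9.18% did so, a share close to that of the members. AMO1 BtzR held the lowest values of the 3 that fell.

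**Figure D3:**
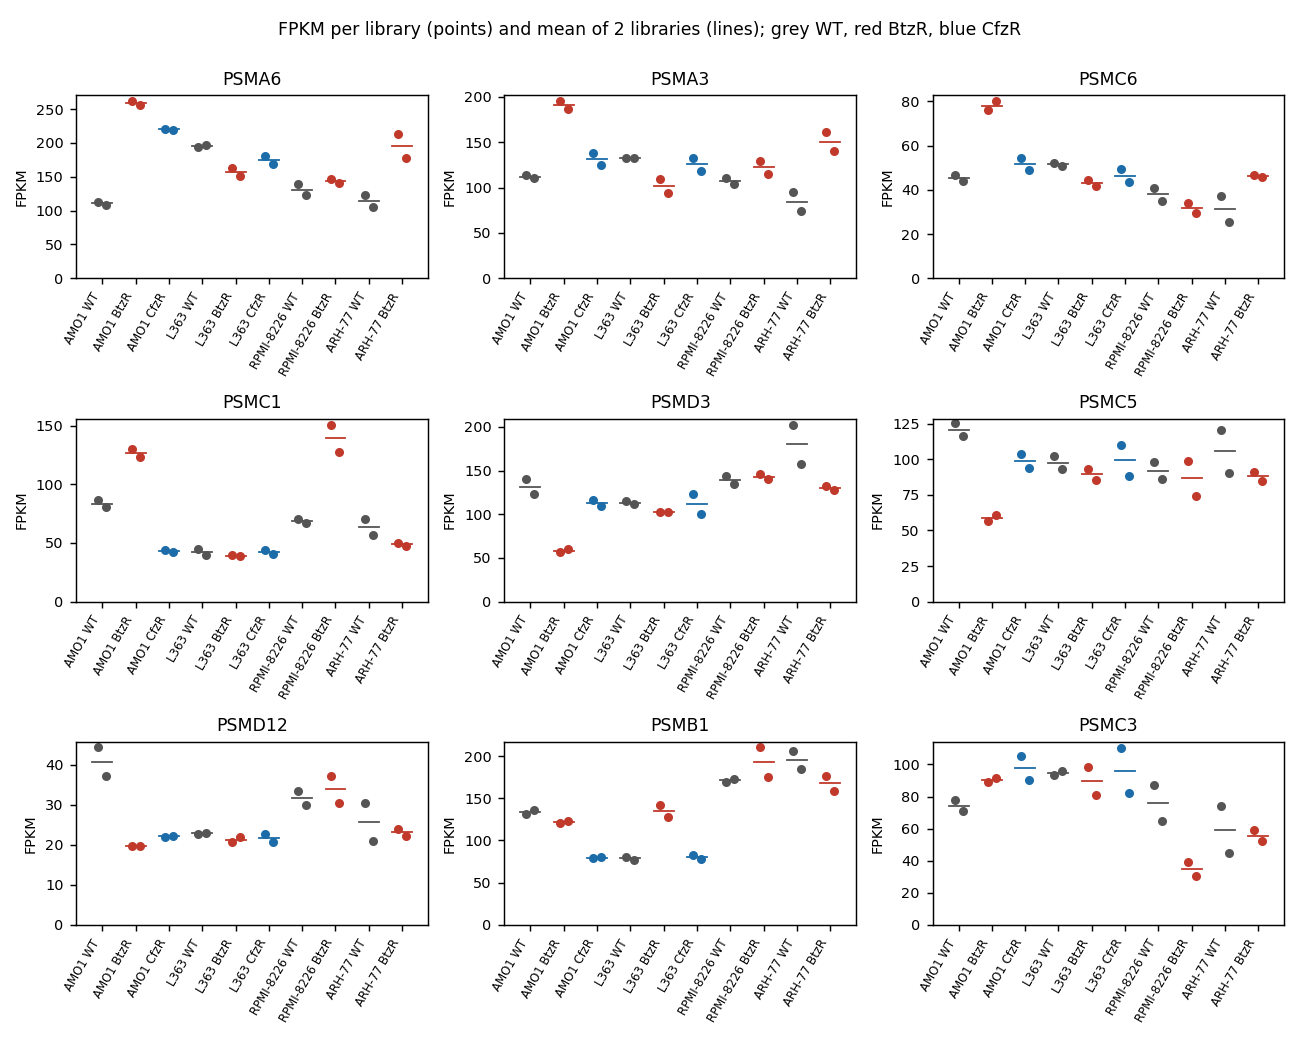
FPKM (vertical axis, from 0) of 9 members in each of the 10 groups (horizontal axis); points are single libraries and lines the mean of 2, in grey for WT, red for BtzR and blue for CfzR. PSMA6 reaches 257 and 263 FPKM in AMO1 BtzR, and PSMB1 in L363 BtzR stands at 142 and 128 FPKM against 80.2 and 77.1 FPKM in L363 WT.

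The regions upstream of these 6 genes are shown because the genes moved furthest and because 2 chromosomes hold all of them: PSMA6, PSMC6 and PSMA3 lie on chromosome 14, and PSMD3, PSMC5 and PSMD12 on chromosome 17. Each run is the 250 bases before an annotated start, 5′ to 3′ on the strand of the gene, from RefSeq on GRCh38.p14. A build is not given for the deposited values, so these positions describe RefSeq only. For PSMA6 and PSMC5, which have more than 1 annotated start, the most upstream start was used. Capitals mark matches on either strand to 3 motifs: the core of the antioxidant response element (TGACNNNGC), the CCAAT box (CCAAT) and the core bound by ETS factors (CCGGAAG).
PSMA6 (chr14:35292067-35292316, plus strand): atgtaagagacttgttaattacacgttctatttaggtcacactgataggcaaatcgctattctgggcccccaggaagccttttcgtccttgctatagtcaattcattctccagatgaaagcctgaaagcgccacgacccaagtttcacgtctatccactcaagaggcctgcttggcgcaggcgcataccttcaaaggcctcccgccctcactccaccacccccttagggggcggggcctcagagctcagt
PSMC6 (chr14:52706950-52707199, plus strand): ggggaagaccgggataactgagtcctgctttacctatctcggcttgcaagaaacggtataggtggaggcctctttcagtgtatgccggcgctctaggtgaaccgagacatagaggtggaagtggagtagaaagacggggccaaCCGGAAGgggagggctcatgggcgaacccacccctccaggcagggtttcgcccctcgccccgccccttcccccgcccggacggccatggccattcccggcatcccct
PSMA3 (chr14:58244593-58244842, plus strand): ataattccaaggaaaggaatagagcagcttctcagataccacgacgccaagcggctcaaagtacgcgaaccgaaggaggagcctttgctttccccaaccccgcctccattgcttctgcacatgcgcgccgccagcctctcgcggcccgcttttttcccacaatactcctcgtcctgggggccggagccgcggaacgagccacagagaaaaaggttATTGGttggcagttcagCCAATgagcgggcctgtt
PSMD3 (chr17:39980557-39980806, plus strand): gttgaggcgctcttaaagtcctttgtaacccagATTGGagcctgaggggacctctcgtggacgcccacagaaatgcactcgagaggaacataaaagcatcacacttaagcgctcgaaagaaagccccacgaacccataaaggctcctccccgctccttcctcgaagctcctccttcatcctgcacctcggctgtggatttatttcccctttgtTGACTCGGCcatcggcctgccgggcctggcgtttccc
PSMC5 (chr17:63827181-63827430, plus strand): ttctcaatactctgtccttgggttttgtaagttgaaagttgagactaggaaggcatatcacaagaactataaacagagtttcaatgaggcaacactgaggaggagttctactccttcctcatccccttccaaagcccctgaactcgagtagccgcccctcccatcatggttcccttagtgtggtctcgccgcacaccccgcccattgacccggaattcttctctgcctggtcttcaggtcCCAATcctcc
PSMD12 (chr17:67366578-67366827, minus strand): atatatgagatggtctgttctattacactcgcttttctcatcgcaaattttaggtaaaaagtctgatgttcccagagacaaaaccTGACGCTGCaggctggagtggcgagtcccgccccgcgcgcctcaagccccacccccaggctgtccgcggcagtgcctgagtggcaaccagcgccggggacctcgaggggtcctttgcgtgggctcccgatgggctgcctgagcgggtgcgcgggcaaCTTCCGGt

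Within the printed bases PSMA6 holds none of the 3 motifs, PSMC6 holds 1 ETS core and PSMA3 holds 2 CCAAT boxes. PSMD3 holds 1 antioxidant response element core and 1 CCAAT box, PSMC5 holds 1 CCAAT box, and PSMD12 holds 1 antioxidant response element core and 1 ETS core. Windows from 250 bases before to 50 after the start were at hand for 36 of 40 members. Outside the printed bases, such windows hold an antioxidant response element core for PSMC5 and ETS cores for PSMA6, which enter the counts. The antioxidant response element core lay in 13 of these 36 (36.1%) against 19.5% of 10680 tested genes with a window and 13.3% of all 35116 windows. The ETS core lay in 15 members (41.7%) against 22.1% of tested genes and 10.3% of all windows, and the CCAAT box in 18 of 36, against 43.5% and 34.6%. Some genes have several windows, which raises their chance of a match, and a match is a run of letters and no sign that a factor binds.

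In AMO1 and RPMI-8226, members with and without the antioxidant response element core moved both ways. In AMO1 BtzR, 2 of the 13 members with an antioxidant response element core were higher and 7 lower, and of the 23 without it 6 were higher and 8 lower. In RPMI-8226 BtzR, 4 of the 13 were higher and 2 lower, and of the 23 without it 4 were higher and 4 lower. In L363 BtzR, 0 of the 13 were higher and 1 lower, and of the 23 without it 0 were higher and 5 lower. In ARH-77 BtzR, 0 of the 13 were higher and 3 lower, and of the 23 without it 4 were higher and 6 lower. These counts are a description and were not tested. NFE2L1 itself, the gene of NRF1, differed by 0.55 in AMO1 BtzR, where it passed the test, and by 0.18 in ARH-77, -0.07 in RPMI-8226 and -0.37 in L363, where it did not.

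Position on the chromosome went with the direction of change in AMO1. The 10 tested genes on each side of a member in the RefSeq gene order, members left out, were taken as its neighbours, a comparison chosen after the members' values were seen. Across the 40 members, the difference in AMO1 BtzR correlated with the median difference of the neighbours at a Pearson r of 0.89 and a Spearman rho of 0.88. All 24 members that passed the test had the sign of their neighbours' median. The points are not independent, since members on 1 chromosome share surroundings, and the correlation is given with no test. Leaving out the members of chromosomes 14 and 17 gave an r of 0.79 over the other 30. The relation was not confined to resistant cells. For the 3 myeloma WT lines against ARH-77 WT the r was 0.71 and the rho 0.78, with 24 of 27 passing members of the same sign. For the libraries labelled AMO1 CfzR against AMO1 WT the r was 0.72, with 13 of 18, and for L363 CfzR against L363 WT it was -0.08. Whether genes outside the members follow their neighbours as closely was not examined.

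All 4 members on chromosome 14 were higher in AMO1 BtzR. Neighbours of PSMA6 had a median difference of 0.57, with 13 of 20 higher and 1 lower, those of PSMA3 0.49, with 15 higher and 0 lower, and those of PSMC6 0.40, with 12 higher and 0 lower. PSMC1, an ATPase of the base, measured 86.4 and 80.5 FPKM in WT and 130 and 124 FPKM in BtzR (0.60, SE 0.10), beside neighbours at 0.13. Over the 412 other tested genes of chromosome 14 the median was 0.43, and 55.8% were higher and 8.98% lower. 

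On chromosome 17, 5 of 6 members were lower in AMO1 BtzR: PSMD3, PSMC5, PSMD12, PSMB3 and PSMD11. PSMC5 differed by -1.03 beside neighbours at -1.01, of which 17 of 20 were lower. PSMD12 had neighbours at -0.66, of which 15 were lower, PSMB3 at -0.70, of which 13 were lower, and PSMD3 at -0.53, of which 11 were lower. PSME3, the sixth, differed by -0.19 and did not pass. Of the 808 other tested genes of chromosome 17, 51.4% were lower and 9.28% higher, with a median of -0.31. What part these surroundings have in the members' changes was not tested. Chromosome and subcomplex overlap for PSMA6 and PSMA3, of the alpha ring, and for PSMD3, PSMD12 and PSMD11, of the lid.

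**Figure D4:**
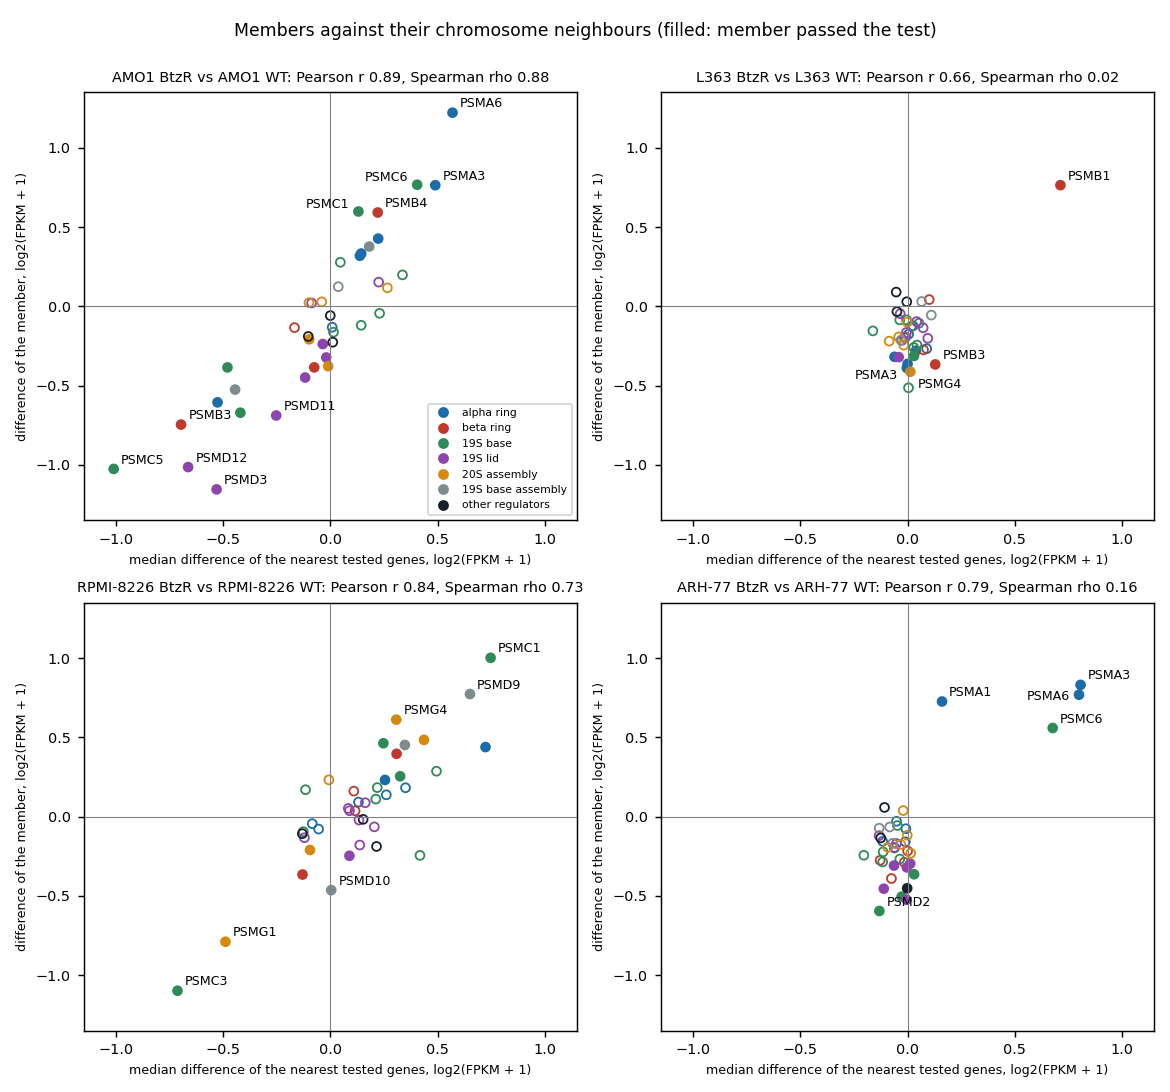
Difference of each member between BtzR and WT cells (vertical axis, log2(FPKM + 1)) against the median difference of its nearest tested genes on the chromosome (horizontal axis, same scale), 1 panel per line; colours mark subcomplexes and filled points passed the test. The points run along the diagonal in AMO1 (Pearson r 0.89) and RPMI-8226 (0.84), while in L363 and ARH-77 a few genes stand apart from a cloud near 0.

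In RPMI-8226, 10 members were higher in BtzR than in WT cells (30.2% of tested genes were) and 6 lower (24.2% of tested genes), with a median of 0.07 against 0.05 over all tested genes; neither share, 25.0% nor 15.0%, lay above the background. Among base subunits 3 rose and 1 fell, among base chaperones 2 rose and 1 fell, and among 20S chaperones 2 rose and 2 fell. In the lid 0 of 8 rose, also at an unadjusted p under 0.05, and 1 fell. Without RPMI-8226 WT replicate 1 the lower count was 3 in place of 6, and without RPMI-8226 WT replicate 2 or RPMI-8226 BtzR replicate 1 the higher count was 6 in place of 10. The members' median was 0.11 without RPMI-8226 WT replicate 1, 0.026 without RPMI-8226 WT replicate 2, -0.011 without RPMI-8226 BtzR replicate 1 and 0.18 without RPMI-8226 BtzR replicate 2, so its sign rested on single libraries.

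PSMC1 rose most in this line, from 70.1 and 67.5 FPKM in WT to 151 and 128 FPKM in BtzR (1.00, SE 0.10, limma adjusted p = 1.1e-06). PSMD9, a chaperone of the base, measured 8.66 and 8.15 FPKM in WT and 15.8 and 14.4 FPKM in BtzR (0.77, SE 0.12). PSMG4 measured 44.9 and 48.1 FPKM in WT and 80.6 and 63.7 FPKM in BtzR (0.61, SE 0.11). All 3 stood apart from WT, with the BtzR replicates of PSMC1 and PSMG4 wider apart than those of WT.

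The largest decrease was that of PSMC3, an ATPase of the base, from 87.2 and 64.5 FPKM in WT to 38.9 and 30.5 FPKM in BtzR (-1.10, SE 0.21, limma adjusted p = 0.00041). PSMG1, which pairs with PSMG2 to start the alpha ring, measured 148 and 135 FPKM in WT and 84.1 and 78.6 FPKM in BtzR (-0.79, SE 0.12). PSMD10 measured 50.8 and 50.9 FPKM in WT and 34.5 and 38.8 FPKM in BtzR (-0.46, SE 0.11). Groups did not overlap, although the WT replicates of PSMC3 lay far apart.

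Members again followed their neighbours in RPMI-8226, at a Pearson r of 0.84 and a Spearman rho of 0.73, and 14 of 16 members that passed had the sign of their neighbours. Without PSMC1 and PSMC3 the r was 0.74 over 38. PSMC1 had neighbours at 0.75, of which 15 of 20 were higher, and PSMD9 at 0.65, of which 16 were higher. PSMC3, on chromosome 11, had neighbours at -0.71, of which 15 were lower, and PSMG1, on chromosome 21, had neighbours at -0.49, of which 12 were lower. PSMD10, on chromosome X, moved apart from its neighbours, which stood at 0.00.

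In L363, BtzR cells had 1 member higher (5.66% of tested genes were) and 8 lower (5.52% of tested genes), with a median of -0.19 against 0.00 over all tested genes. PSMB1 rose alone, and in the alpha ring 4 of 7 fell: PSMA2, PSMA3, PSMA6 and PSMA7. Another 4 fell in 4 other subcomplexes, 1 each: PSMB3, PSMD4, PSMD13 and PSMG4. The lower count was fragile: leaving out any 1 of the 4 libraries gave 0 (L363 WT replicate 1, L363 WT replicate 2 or L363 BtzR replicate 2) or 1 (L363 BtzR replicate 1), rescaling each library as for TPM gave 1 higher and 2 lower, and quantile normalization gave 5 lower.

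PSMB1, a beta subunit without protease activity, measured 80.2 and 77.1 FPKM in L363 WT and 142 and 128 FPKM in L363 BtzR (0.76, SE 0.09, limma adjusted p = 3.7e-05). In L363 CfzR it measured 82.2 and 78.5 FPKM, and in the libraries labelled AMO1 CfzR 78.6 and 80.5 FPKM. The gene passed the test under every alternative tried. It lies near the end of chromosome 6, where 12 neighbours could be taken, with a median of 0.71 and 9 of them higher. The BtzR libraries thus stood alone among the libraries of this line.

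The 3 largest decreases in L363 BtzR were smaller. PSMG4 measured 25.3 and 23.9 FPKM in WT and 18.0 and 18.5 FPKM in BtzR (-0.41, SE 0.11, limma adjusted p = 0.030). PSMA3 measured 133 and 132 FPKM in WT and 109 and 93.4 FPKM in BtzR (-0.39, SE 0.12, limma adjusted p = 0.047), and PSMB3 measured 239 and 227 FPKM in WT and 186 and 174 FPKM in BtzR (-0.37, SE 0.10, limma adjusted p = 0.032). None of the 3 passed once any 1 of the 4 libraries was left out or each library was rescaled as for TPM, with limma adjusted p between 0.052 and 0.35. The relation to neighbours in L363 (Pearson r 0.66, Spearman rho 0.02) rested on PSMB1, and without it the r was -0.02 over 39.

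In ARH-77, 4 members were higher in BtzR than in WT cells (5.98% of tested genes were) and 9 lower (7.6% of tested genes), with a median of -0.19 against -0.04 over all tested genes. The alpha ring had 3 of 7 higher and the base 1 of 10 higher and 3 lower. The lid had 5 of 8 lower and 0 higher, also at an unadjusted p under 0.05. The WT replicates lay far apart, and the lower count was 2 without ARH-77 WT replicate 1, 20 without ARH-77 WT replicate 2, 0 without ARH-77 BtzR replicate 1 and 1 without ARH-77 BtzR replicate 2. A fit of the 4 ARH-77 libraries alone called 0 in either direction, and the higher count was 3 or 4 whichever library was left out of the fit over all groups. The members' median was -0.026 without ARH-77 WT replicate 1 and -0.38 without ARH-77 WT replicate 2.

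PSMA3 measured 95.4 and 73.6 FPKM in ARH-77 WT and 161 and 140 FPKM in BtzR (0.83, SE 0.12, limma adjusted p = 0.0002). PSMA6 measured 124 and 105 FPKM in WT and 214 and 177 FPKM in BtzR (0.77, SE 0.10). PSMA1 measured 95.1 and 83.2 FPKM in WT and 155 and 142 FPKM in BtzR (0.73, SE 0.08). In each case the lower BtzR library lay well above the higher WT library, so these 3 differences exceeded the wide gap between the replicates.

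PSMD1 and PSMD2 are the large scaffolds of the base. PSMD2 measured 156 and 131 FPKM in WT and 91.9 and 97.1 FPKM in BtzR (-0.60, SE 0.13). PSMD11, a lid subunit, measured 97.8 and 80.1 FPKM in WT and 63.2 and 59.4 FPKM in BtzR (-0.52, SE 0.14). PSMD1 measured 86.6 and 62.0 FPKM in WT and 54.2 and 48.7 FPKM in BtzR (-0.50, SE 0.15, limma adjusted p = 0.044). The replicates of WT differed by more for PSMD1 than the lower WT library did from BtzR, and without ARH-77 WT replicate 1 the difference of PSMD1 was -0.27 (limma adjusted p = 0.25) and that of PSMD11 -0.38 (0.11). Neither PSMD1 nor PSMD11 passed without ARH-77 BtzR replicate 1 or without ARH-77 BtzR replicate 2, and PSMD2 did not pass without ARH-77 BtzR replicate 1 (limma adjusted p = 0.051). In the fit of the ARH-77 libraries alone none of these 3 or of the 3 alpha ring genes passed.

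In ARH-77 BtzR, 3 of the 4 members on chromosome 14 were higher, as were 32.3% of the 412 other tested genes there. In RPMI-8226 BtzR, 49.8% of those 412 genes were higher, but only 1 of the 4 members, PSMC1. The values below are those of ARH-77. PSMA6, PSMA3 and PSMC6 had neighbours with median differences of 0.80, 0.81 and 0.68, of which 16, 17 and 17 of 20 were higher and 0 lower. PSMC6 measured 37.4 and 25.7 FPKM in WT and 46.8 and 45.6 FPKM in BtzR (0.56, SE 0.14). PSMC1, the fourth member on this chromosome, was lower (-0.36, SE 0.10), beside neighbours at 0.03. Without PSMA6, PSMA3 and PSMC6 the Pearson r with neighbours was 0.34 over 37 members, against 0.79 over all 40, and the Spearman rho was 0.16 over all 40.

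**Figure D5:**
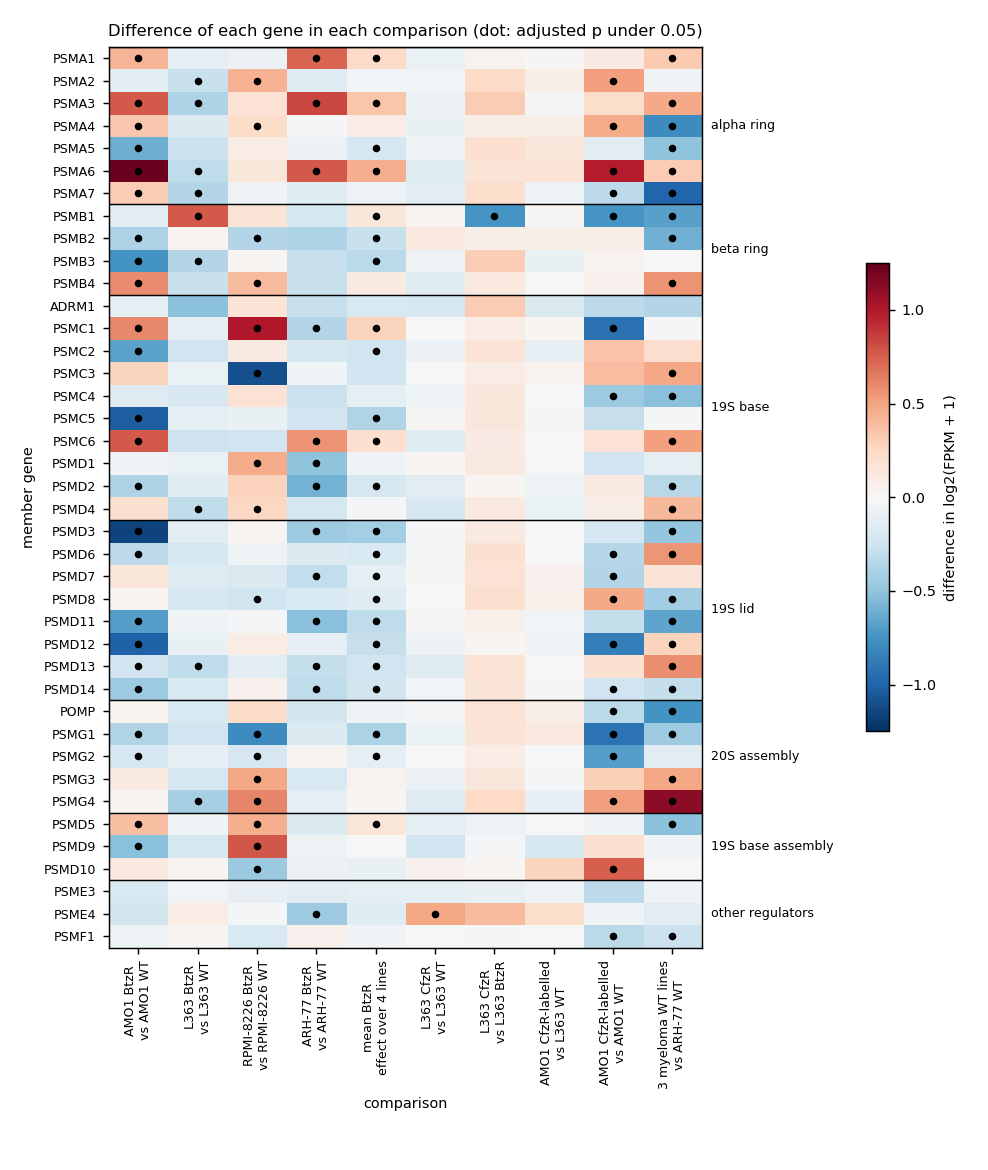
Difference in log2(FPKM + 1) of each member gene (rows, by subcomplex) in each comparison (columns), red for higher and blue for lower in the group named first; dots mark an adjusted p under 0.05. The lid genes carry dots for lower values in the column of the mean BtzR effect, at 8 of 8. In the alpha ring 5 of 7 genes carry dots for higher values in AMO1 BtzR and 3 of 7 in ARH-77 BtzR.

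Averaged over the 4 lines with equal weight, BtzR cells had 7 members higher (25.5% of tested genes were) and 16 lower (26.8% of tested genes), with a median of -0.11 against 0.00 over all tested genes. All 8 lid genes were lower, with differences from -0.43 to -0.12, and the median of the lid was -0.24. The alpha ring had 3 higher and 1 lower, the base 2 higher and 3 lower, the beta ring 1 higher and 2 lower, and the other regulators 0 either way, with 1 lower at an unadjusted p under 0.05. Leaving out each library in turn gave 14 to 21 lower members and 6 to 9 higher, and a median from -0.13 to -0.048, the latter without ARH-77 WT replicate 1.

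PSMA6 (0.45, SE 0.05, limma adjusted p = 2.6e-06), PSMA3 (0.35, SE 0.06) and PSMC1 (0.28, SE 0.05) had the largest mean increases. PSMD3 (-0.43, SE 0.06, limma adjusted p = 1.9e-05), PSMG1 (-0.40, SE 0.06) and PSMC5 (-0.37, SE 0.07) had the largest mean decreases. The SE and p of these means, and the calls of the lid genes above, rest on replicate libraries within groups. They do not measure the spread between lines. Such averages hid unlike lines. PSMA6 was higher in AMO1 and ARH-77, lower in L363 and at 0.14 in RPMI-8226, where it did not pass, and PSMC1 was higher in AMO1 and RPMI-8226, lower in ARH-77 and did not pass in L363. PSMG1 measured 90.2 and 77.6 FPKM in AMO1 WT, 63.9 and 64.4 FPKM in AMO1 BtzR, 123 and 94.5 FPKM in ARH-77 WT and 104 and 86.8 FPKM in ARH-77 BtzR, and fell by the test in AMO1 and RPMI-8226.

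Whether the BtzR effect differed between lines was tested directly. In an interaction F test with limma, 29 of 40 members differed, against 71.1% of tested genes. All 7 alpha ring genes and all 3 base chaperones passed, as did 8 of 10 base genes, 3 of 4 beta ring genes, 5 of 8 lid genes, 3 of 5 chaperones of 20S assembly and 0 of 3 other regulators.

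No member was higher in more than 2 of the 4 lines (2.18% of tested genes were), and 8 were higher in 2 (14.2% of tested genes were in 2 or more): PSMA1, PSMA3, PSMA4, PSMA6, PSMB4, PSMC1, PSMC6 and PSMD5. Among members only PSMD13 was lower in 3 lines (AMO1, L363 and ARH-77), and 8 were lower in 2, where 1.83% of tested genes were lower in 3 or more lines and 13.0% in 2 or more. In all, 9 members were higher in one line and lower in another (18.4% of tested genes), 7 were higher in at least 1 line and lower in 0 (32.5% of tested genes), and 19 were lower in at least 1 and higher in 0 (29.5% of tested genes). These counts take in the calls of L363 and ARH-77, whose lower counts fell to 0 when some single libraries were left out. The 19 include all 8 lid genes. ADRM1, PSMC4, POMP, PSME3 and PSMF1 passed in 0 of the 4 lines. ADRM1, a ubiquitin receptor, measured 162 and 143 FPKM in AMO1 WT and 133 and 147 FPKM in AMO1 BtzR, and 223 and 117 FPKM in ARH-77 WT, the widest replicate gap of any member. PSMB4, PSMD5, PSMD13, ADRM1 and other genes of these counts were named after their values were seen where the rule for named genes did not choose them.

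PSMD13 measured 83.3 and 79.4 FPKM in AMO1 WT against 69.6 and 68.0 FPKM in BtzR, 94.9 and 91.2 FPKM in L363 WT against 75.0 and 73.6 FPKM in BtzR, and 58.3 and 50.8 FPKM in ARH-77 WT against 44.0 and 44.2 FPKM in BtzR. In RPMI-8226 it measured 76.6 and 69.1 FPKM in WT and 70.2 and 62.6 FPKM in BtzR (-0.13, SE 0.09), where the groups overlapped. The differences of -0.24, -0.32 and -0.30 in the 3 other lines were similar in size, and the interaction test did not find the 4 effects to differ (limma adjusted p = 0.48). The calls of PSMD13 were weak. In AMO1 and L363 it did not pass once any 1 of the 4 libraries (either replicate of WT or of BtzR) was left out, with limma adjusted p from 0.058 to 0.15 and from 0.088 to 0.19. In ARH-77 it did not pass without WT replicate 1, BtzR replicate 1 or BtzR replicate 2 (0.12 to 0.15 by limma) or in the fit of the 4 ARH-77 libraries alone (0.38), and in L363 it also did not pass under TPM scaling (0.063).

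Carfilzomib-resistant L363 cells had 1 member higher than WT (4.88% of tested genes were) and 0 lower (3.58% of tested genes), with a median of -0.06 and differences from -0.24 to 0.48. The median was 0.039 without L363 CfzR replicate 2, -0.15 without L363 CfzR replicate 1 and -0.027 without L363 WT replicate 1. At an unadjusted p under 0.05, 1 was lower. PSME4, the proteasome activator PA200, measured 20.9 and 23.1 FPKM in WT and 32.4 and 29.9 FPKM in CfzR (0.48, SE 0.13, limma adjusted p = 0.029), beside neighbours at -0.02. It did not pass once any 1 of the 4 libraries (either replicate of L363 WT or of L363 CfzR) was left out, with limma adjusted p between 0.07 and 0.24.

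Set against L363 BtzR, L363 CfzR cells had 0 members higher (3.27% of tested genes were) by limma, 6 at an unadjusted p under 0.05, and 1 lower (2.87% of tested genes). The lower member was PSMB1 (-0.73, SE 0.09, limma adjusted p = 7.7e-05), and the median was 0.13. With the replicate number as a block 2 members were higher. This contrast shares its libraries with the contrasts of L363 WT above.

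The libraries labelled AMO1 CfzR differed from AMO1 WT with 6 members higher (26.8% of tested genes were) and 12 lower (30.9% of tested genes), and from L363 WT with 0 higher (3.52% of tested genes) and 0 lower (3.4% of tested genes) by limma, where 1 was higher at an unadjusted p under 0.05. Against L363 WT the members' differences lay between -0.21 and 0.28. Without any 1 of the 4 libraries (replicate 1 or 2 of AMO1 WT, or of the libraries labelled AMO1 CfzR) the lower count against AMO1 WT was 7 in place of 12. With the replicate block the higher count was 11 in place of 6.

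Against AMO1 WT the largest differences were those of PSMA6, at 221 and 220 FPKM (0.99, SE 0.10), PSMD10, at 45.9 and 43.2 FPKM against 24.8 and 27.5 FPKM (0.75, SE 0.11), and PSMG4, at 21.8 and 24.1 FPKM (0.52, SE 0.11). PSMC1 was at 43.7 and 42.5 FPKM (-0.94, SE 0.10), PSMG1 at 44.1 and 43.5 FPKM (-0.92, SE 0.12) and PSMD12 at 22.0 and 22.2 FPKM (-0.85, SE 0.14). The L363 WT libraries had 195 and 197 FPKM of PSMA6, 44.8 and 39.9 FPKM of PSMC1, 40.3 and 39.7 FPKM of PSMG1 and 22.7 and 23 FPKM of PSMD12. For these genes the labelled libraries thus lay nearer to L363 WT than to AMO1 WT.

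Other genes of the same machine moved in their own way. Of the 3 catalytic genes, PSMB5, which encodes the subunit that both drugs bind most strongly, was higher in all 4 BtzR groups, by 1.70 in RPMI-8226, 0.88 in AMO1, 1.73 in L363 and 0.75 in ARH-77. No member rose with it in all 4. The 5 genes of the immunoproteasome and the PA28 activator had 3 higher in AMO1 BtzR and 5 lower in RPMI-8226 BtzR. Of 17 partners and genes of the NRF1 axis, 3 were higher and 6 lower in AMO1 BtzR, 4 and 2 in RPMI-8226, 0 and 1 in L363, and 0 and 4 in ARH-77. SEM1, the small lid subunit in that list, was lower in AMO1 (-0.62) and ARH-77 (-0.40) and higher in RPMI-8226 (0.47).

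Complexes outside the proteasome give a scale for these counts. Of 8 subunits of the chaperonin TRiC, 3 were higher and 3 lower in AMO1 BtzR, 2 higher and 1 lower in RPMI-8226 BtzR, and 0 either way in L363 and ARH-77. Of 9 subunits of the COP9 signalosome, a relative of the lid, 4 were higher and 5 lower in AMO1 BtzR, 1 higher and 2 lower in RPMI-8226 BtzR, 0 higher and 2 lower in ARH-77 BtzR and 1 higher and 0 lower in L363 BtzR, and in the mean over lines 0 were higher and 6 lower, with a median of -0.15.

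RefSeq lists pseudogenes named after 20 of the 40 members, 13 for PSMC1, 4 each for PSMA6 and PSMD7 and 3 each for PSMA2, PSMC6 and PSMD10. How reads were shared between a gene and such copies was not tested, and values of these genes are uncertain to that extent.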

How the data were processed

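BGI extracted the RNA and sequenced it on a BGISEQ-500. The authors deposited expression as FPKM for each gene and library, with NCBI gene IDs; the submitters' processing notes name HISAT2 2.0.4, Bowtie2 2.2.5 and RSEM 1.2.12 with no order, and the genome build is not given in the sources used here. Libraries were assigned to groups by the line, drug and replicate number in their labels.

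FPKM values were transformed as log2(FPKM + 1), and a model with 1 mean for each of 10 groups was fitted over all 20 libraries (10 residual degrees of freedom) with limma 3.58.1 in R 4.3.3, with a mean-variance trend. The 13089 genes whose mean reached 1 FPKM in any group were tested, two-sided, and a gene passed at a Benjamini-Hochberg adjusted p under 0.05 over all of them. An exact permutation test of 2 libraries against 2 cannot go below 0.33 and was not used. Because FPKM values are not counts, no count test was run.

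The members and gene lists were chosen with earlier results of these data known. Members named with values were the 3 largest increases and decreases that passed in each contrast with no overlap between groups (for the mean over lines, that passed), those past an absolute difference of 1, and the highest and lowest WT mean of each subcomplex; any other was named after its values were seen. Alternatives were a pseudocount of 0.1, no filter, rescaling as for TPM, quantile normalization, no trend, a replicate block, a fit of only the libraries compared, and leaving out 1 library at a time. Neighbours and promoters came from RefSeq (GRCh38.p14), and the neighbour comparison was added after the values were seen. Tables and figures were made with Python 3.11.15, pandas 2.3.3, numpy 2.4.6 and matplotlib 3.10.9.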

Additional observations from a re-analysis of the deposited data

Results flagged for a closer look

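Among the 31 members named by rule, 24 had a BtzR effect that was not the same in the 4 lines, by an F test of the interaction fitted with limma and adjusted over all 13089 tested genes. Each is given with its highest and its lowest difference in log2(FPKM + 1) over the lines and its adjusted p. In the alpha ring these were PSMA6 (1.22 in AMO1, -0.32 in L363, limma adjusted p = 1.06e-06), PSMA1 (0.73 in ARH-77, -0.12 in L363, limma adjusted p = 1.97e-05), PSMA3 (0.83 in ARH-77, -0.39 in L363, limma adjusted p = 4.34e-05), PSMA4 (0.33 in AMO1, -0.18 in L363, limma adjusted p = 0.00194), PSMA5 (0.09 in RPMI-8226, -0.61 in AMO1, limma adjusted p = 0.00455) and PSMA7 (0.32 in AMO1, -0.36 in L363, limma adjusted p = 0.00468). In the beta ring they were PSMB1 (0.76 in L363, -0.22 in ARH-77, limma adjusted p = 3.96e-05), PSMB4 (0.59 in AMO1, -0.28 in ARH-77, limma adjusted p = 0.000164) and PSMB3 (0.04 in RPMI-8226, -0.75 in AMO1, limma adjusted p = 0.00209). In the 19S base they were PSMC1 (1.00 in RPMI-8226, -0.36 in ARH-77, limma adjusted p = 4.40e-06), PSMC6 (0.77 in AMO1, -0.26 in L363, limma adjusted p = 0.000305), PSMD4 (0.26 in RPMI-8226, -0.31 in L363, limma adjusted p = 0.000677), PSMD2 (0.29 in RPMI-8226, -0.60 in ARH-77, limma adjusted p = 0.0029), PSMC5 (-0.09 in RPMI-8226, -1.03 in AMO1, limma adjusted p = 0.0034), PSMC3 (0.28 in AMO1, -1.10 in RPMI-8226, limma adjusted p = 0.00423) and PSMD1 (0.46 in RPMI-8226, -0.50 in ARH-77, limma adjusted p = 0.00948). In the lid they were PSMD3 (0.04 in RPMI-8226, -1.16 in AMO1, limma adjusted p = 6.22e-05), PSMD12 (0.09 in RPMI-8226, -1.01 in AMO1, limma adjusted p = 0.000865) and PSMD11 (-0.02 in RPMI-8226, -0.69 in AMO1, limma adjusted p = 0.0149). Among assembly factors they were PSMD9 (0.77 in RPMI-8226, -0.53 in AMO1, limma adjusted p = 8.27e-05), PSMG4 (0.61 in RPMI-8226, -0.41 in L363, limma adjusted p = 0.000429), PSMG3 (0.49 in RPMI-8226, -0.22 in L363, limma adjusted p = 0.00776), PSMG1 (-0.18 in ARH-77, -0.79 in RPMI-8226, limma adjusted p = 0.0154) and PSMD10 (0.12 in AMO1, -0.46 in RPMI-8226, limma adjusted p = 0.0217). Over all tested genes 71.1% passed the same test, and 29 of all 40 members did (72.5%), a share close to it. Many of the 31 were named for a large difference in a contrast of these data, which favours passing this test. The count of 24 is therefore no result about the members.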

How the results depend on the processing

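Only the 42 differences of single members chosen by the rule for named genes were followed 1 by 1. Losses among the other members that passed show only in the counts below. None of the 42 changed sign in an alternative, and 32 of the 42 passed in every alternative. Most had been chosen for groups that did not overlap. Leaving out 1 library could not reverse the sign of those, so the kept signs give them no support. The other 10 were PSMG4, PSMA3 and PSMB3 in L363 BtzR, PSME4 in L363 CfzR and the 6 members named in ARH-77 BtzR, all lost in at least 1 alternative; the range of their limma adjusted p was 2.5e-06 to 0.35. In a fit of the compared libraries only, members lower numbered 19 in L363 BtzR (8 in the fit over all groups), 3 in RPMI-8226 BtzR (6) and 0 in ARH-77 BtzR (9), members higher 0 in ARH-77 BtzR (4), 10 in the libraries labelled AMO1 CfzR against AMO1 WT (6), 3 higher and 1 lower in the same libraries against L363 WT (0 and 0), and 1 higher in L363 CfzR against L363 BtzR (0). Without the filter on low values 1 was higher in that last contrast. Under TPM scaling L363 BtzR had 2 lower and a median of -0.14 in place of -0.19, and under quantile normalization 5 lower and a median of -0.13. The causes were not tested, beyond the fewer libraries in the smaller fits.

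Leaving out each library in turn gave these ranges. Members lower numbered 9 to 12 in AMO1 BtzR (9 without AMO1 WT replicate 1 or AMO1 BtzR replicate 1), 7 each time in the libraries labelled AMO1 CfzR against AMO1 WT, 0 to 1 in L363 BtzR, 3 to 6 in RPMI-8226 BtzR (3 without RPMI-8226 WT replicate 1) and 0 to 20 in ARH-77 BtzR (2 and 20 without WT replicates 1 and 2, 0 and 1 without BtzR replicates 1 and 2). Members higher numbered 0 each time in L363 CfzR and 6 to 11 in RPMI-8226 BtzR (6 without WT replicate 2 or BtzR replicate 1). The members' median ranged from -0.15 to -0.030 in AMO1 BtzR, -0.22 to -0.14 in L363 BtzR, -0.38 to -0.026 in ARH-77 BtzR, -0.011 to 0.18 in RPMI-8226 BtzR, -0.15 to 0.039 in L363 CfzR, -0.13 to -0.048 in the mean BtzR effect, -0.032 to 0.042 in the libraries labelled AMO1 CfzR against L363 WT and -0.20 to 0.11 in myeloma lines against ARH-77.

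The labels number the replicates of each group 1 and 2. The labels tie these numbers to no shared culture, batch or day. Deviations of same-numbered libraries correlated at 0.12 to 0.24 in 7 of 8 contrasts and at -0.01 in AMO1 BtzR, with 2 pairs in each, so a shared source of the numbers is hinted at by the data and not given by the design, and the fit without the block was kept. With the replicate number as a block, 11 members in place of 6 were higher in the libraries labelled AMO1 CfzR against AMO1 WT, and 2 in place of 0 in L363 CfzR against L363 BtzR; the other counts of members stayed within 1.5 times. Depth is unknown, so what it limits could not be assessed.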
